A study of Mus musculus with 2 samples.

Results

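The Hippo kinases, the coactivators they restrain and the DNA-binding factors those coactivators use were measured in mouse forebrain at day 10.5 of embryonic development. The set held 10 of the 43346 annotated genes, taken by symbol and with earlier results of these data known. They are the kinases Stk3, Stk4, Lats1 and Lats2, the coactivators Yap1 and Wwtr1, and the transcription factors Tead1, Tead2, Tead3 and Tead4. All 10 were found by Ensembl identifier in both libraries. The labels gave 1 group, healthy tissue of strain B6NCrl with male and female embryos pooled, sequenced as total RNA from 10 ng. Replicate 1 came from 69 embryos and replicate 2 from 51, so each value is a mean over many animals and the spread between the libraries is that between pools. The labels name no second condition, no mutant allele and no treatment. With 2 libraries of 1 group an exact sign-flip test cannot give a p below 0.5, and none is given.

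In the Hippo pathway, Stk3 and Stk4 (the Mst2 and Mst1 kinases) phosphorylate and activate Lats1 and Lats2, which in turn phosphorylate Yap1 and Wwtr1 (also called Taz) and hold them in the cytoplasm or mark them for degradation. Unphosphorylated Yap1 and Wwtr1 enter the nucleus, where, having no DNA-binding domain of their own, they act on genes through the Tead factors. In the embryonic neural tube the pathway is known for its part in the number and survival of neural progenitors. RNA levels do not report phosphorylation or the place of these proteins in the cell.

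Total expected counts, the estimated reads per gene, were 43021202 for replicate 1 and 39215064 for replicate 2. Annotated genes took 41537304 and 38012457 of them. All 6 forebrain markers were at or above 1 TPM (a share of all transcripts that corrects for transcript length) in both libraries. By the same rule 8 of 8 neuroepithelial markers were detected. No list of another brain region was read, so these counts do not test the forebrain label. Of the pericyte markers 2 of 6 were detected, near the 32.4% of all annotated genes, so pericytes are not read from that list. The pools did hold other cells. Detected were 8 of 8 markers of head mesenchyme and neural crest, 8 of 8 of endothelium and 6 of 6 of erythroid cells. So were 6 of 6 markers of neurons, 7 of 8 of surface ectoderm and 6 of 7 of macrophages. A level in this bulk tissue is therefore a mean over cell types, and fewer cells of a type cannot be told apart from less RNA per cell.

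The Tead genes carried the largest differences within the set, so the exon that most of their coding transcripts share is shown first. It is 63 bases long in all 4 genes and encodes the end of the TEA domain, the DNA-binding domain that names the family. The sequences are from GENCODE M21 transcripts on GRCm38 (mm10), 5′ to 3′ on the coding strand, and capitals mark bases that differ from the Tead2 exon, which is therefore all lower case.
Tead2 exon, chr7:45219144-45219206, plus strand: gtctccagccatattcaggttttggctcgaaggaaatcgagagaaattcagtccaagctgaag
Tead1 exon, chr7:112842040-112842102, plus strand: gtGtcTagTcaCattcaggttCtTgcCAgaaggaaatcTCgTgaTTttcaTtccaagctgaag
Tead4 exon, chr6:128251540-128251602, minus strand: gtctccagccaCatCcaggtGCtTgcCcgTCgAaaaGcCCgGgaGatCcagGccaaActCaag
Tead3 exon, chr17:28336511-28336573, minus strand: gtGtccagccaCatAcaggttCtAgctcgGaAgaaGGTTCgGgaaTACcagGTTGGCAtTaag
Tead1 second exon, chr7:112841888-112841950, plus strand: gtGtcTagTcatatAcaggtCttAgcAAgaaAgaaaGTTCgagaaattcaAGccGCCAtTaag
The Tead1 exon shared 49 of 63 bases with that of Tead2 (77.8%), the Tead4 exon 45 (71.4%) and the Tead3 exon 39 (61.9%). Tead1 also has a second exon of the same length just upstream. That exon shared 43 bases with the Tead2 exon, 44 with the other Tead1 exon and 46 with the Tead3 exon (73.0%). Its use is described with the Tead1 transcripts.

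All 10 genes reached 1 TPM in both libraries, against 32.4% of all annotated genes (14032 genes). Tead2 stood far above the others at about 305.3 TPM, the kinases of the first tier and Yap1 lay between 27.2 and 33.2 TPM, and Tead4 was lowest at 1.5 TPM. Tead3 and Tead4 rested on the fewest reads, 302 and 78 expected counts in replicate 1, and each of the other genes on at least 1042 in either library. Of the 10, 4 lay above the median of the detected genes, which was 16.975 TPM in replicate 1 and 17.175 TPM in replicate 2.

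**Figure D1:**
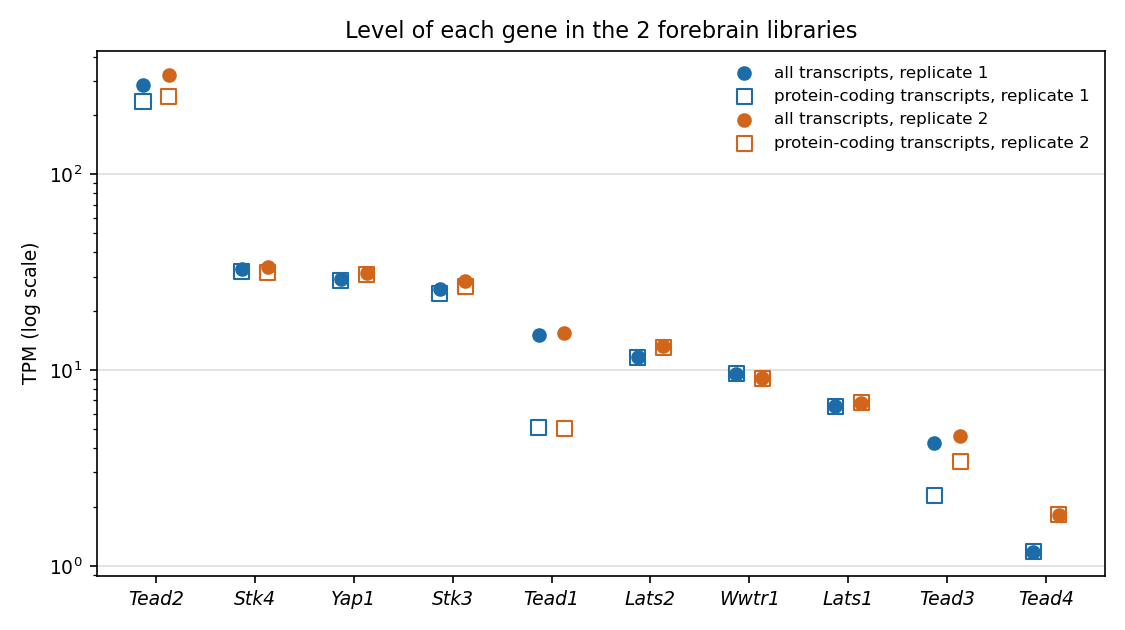
Level of each of the 10 genes in TPM (log scale), with filled points for all transcripts of a gene and open squares for its protein-coding transcripts, in replicate 1 (blue) and replicate 2 (orange). Tead2 sits at 287.37 and 323.28 TPM, above every other gene, and the open squares fall clearly below the filled points for Tead1 (5.07 and 5.03 against 15.14 and 15.4 TPM) and Tead3.

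Among the first-tier kinases, Stk4 was the higher. Stk4 (ENSMUSG00000018209, chr2:164070322-164155524, plus strand) was at 32.69 TPM in replicate 1 and 33.74 TPM in replicate 2, a mean of 33.2 ± 0.742 (SD, n = 2). Stk3 (ENSMUSG00000022329, chr15:34875496-35178921, minus strand) was at 26.0 and 28.42 TPM, a mean of 27.2 ± 1.71 (SD, n = 2). Both libraries of Stk4 lay above both of Stk3. The log2 ratio of Stk4 over Stk3 was 0.29 ± 0.06 (SD, n = 2), or 1.22-fold. A difference was called larger than the spread when it had the same sign in both libraries, was over 2 SD of the libraries, and was over the spread of the log2 ratio between libraries among detected genes of like count (within 2-fold). Stk4 over Stk3 met all of these. Without division by length, as CPM (counts scaled to library size), the ratio was 2.07-fold, since Stk4 transcripts are the longer. The 5′ end of Stk4 overlaps Tomm34 on the other strand, listed at 2636 and 2376 expected counts beside 4197 and 3775 of Stk4. Whether the counting used strand is not known here, so reads over their shared bases cannot be told apart.

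The second-tier kinases were lower, and Lats2 exceeded Lats1. Lats2 (ENSMUSG00000021959, chr14:57689662-57758388, minus strand) was at 11.67 and 13.3 TPM, a mean of 12.5 ± 1.15 (SD, n = 2). Lats1 (ENSMUSG00000040021, chr10:7681214-7716460, plus strand) was at 6.53 and 6.82 TPM, a mean of 6.67 ± 0.205 (SD, n = 2). The groups of values did not overlap, and Lats2 over Lats1 was 0.89 ± 0.09 on the log2 scale (SD, n = 2), or 1.85-fold, larger than the spread. Lats2 made up 65.1% ± 1.40 (SD, n = 2) of the summed Lats TPM. The 2 tiers together differed as well: the sum of Stk3 and Stk4 was 58.69 and 62.16 TPM, and that of Lats1 and Lats2 was 18.2 and 20.12 TPM. This ratio was 1.65 ± 0.04 on the log2 scale (SD, n = 2), or 3.15-fold, and 2.09-fold without division by length. Within Lats2 lies the processed pseudogene Gm20430 on the other strand, listed at 61.75 and 31.11 expected counts, few beside the 1544 and 1603 of Lats2. The protein-coding gene Gm49361 of GENCODE M21 (chr14:57642077-57746103) overlaps Lats2 on the same strand. It has no deposited value, so any reads of it over shared bases cannot be told apart from those of Lats2.

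Of the coactivators, Yap1 was the more abundant. Yap1 (ENSMUSG00000053110, chr9:7931999-8004596, minus strand) was at 29.21 and 31.41 TPM, a mean of 30.3 ± 1.56 (SD, n = 2). Wwtr1 (ENSMUSG00000027803, chr3:57455649-57575910, minus strand), its paralog with a like transactivation domain, was at 9.6 and 9.09 TPM, a mean of 9.35 ± 0.361 (SD, n = 2). Yap1 lay above Wwtr1 in each library, by 3.02-fold in replicate 1 and 3.43-fold in replicate 2. The mean log2 ratio was 1.69 ± 0.13 (SD, n = 2), larger than the spread, and Yap1 held 76.4% ± 1.62 (SD, n = 2) of their summed TPM.

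The Tead family was dominated by Tead2. Tead2 (ENSMUSG00000030796, chr7:45215753-45233644, plus strand) was at 287.37 TPM in replicate 1 and 323.28 TPM in replicate 2, from 13834 and 13383 expected counts. Its mean of 305.3 ± 25.4 TPM (SD, n = 2) stood at percentile 96.3 among detected genes. Tead1 (ENSMUSG00000055320, chr7:112679318-112906807, plus strand) was at 15.14 and 15.4 TPM, a mean of 15.3 ± 0.184 (SD, n = 2). Tead1 and Tead2 lie on the same chromosome, far apart. Tead3 (ENSMUSG00000002249, chr17:28331671-28350817, minus strand) was at 4.23 and 4.59 TPM, a mean of 4.41 ± 0.255 (SD, n = 2). Tead4 (ENSMUSG00000030353, chr6:128224288-128300823, minus strand), known for its role in the trophectoderm of the early embryo, was at 1.18 and 1.83 TPM, a mean of 1.5 ± 0.460 (SD, n = 2), on 78 and 100 expected counts. The 4 genes kept the same order in both libraries, with no overlap.

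Tead2 alone made up 93.5% ± 0.248 (SD, n = 2) of the summed Tead TPM, Tead1 4.69% ± 0.321, Tead3 1.35% ± 0.0309 and Tead4 0.457% ± 0.104. On the log2 scale Tead2 exceeded Tead1 by 4.31 ± 0.10 (SD, n = 2), or 19.8-fold. It exceeded Tead3 by 6.08 ± 0.04, or 67.7-fold, and Tead4 by 7.60 ± 0.30, or 194.0-fold. Each of the 6 Tead pairs differed by more than the spread, down to Tead3 over Tead4 at 1.52 ± 0.34, or 2.87-fold. The ratio to Tead4 depended on the small constant added to each TPM: it was 194.0-fold with 0.1 added and 123.1-fold with 1 added. The 3′ end of Tead2 overlaps that of Cd37, a leukocyte tetraspanin gene on the other strand, which was listed at 27 and 26 expected counts. The sources used here do not say whether the counting used strand, so reads over the shared bases cannot be told apart.

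The summed Tead TPM exceeded the summed TPM of Yap1 and Wwtr1 by a wide margin. The Tead sum was 307.92 TPM in replicate 1 and 345.1 TPM in replicate 2, against 38.81 and 40.5 TPM for the coactivators. The log2 ratio was 3.04 ± 0.07 (SD, n = 2), or 8.20-fold. As CPM it was 3.55-fold, since Tead2 transcripts are short. These are ratios of transcripts and say nothing of protein.

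**Figure D2:**
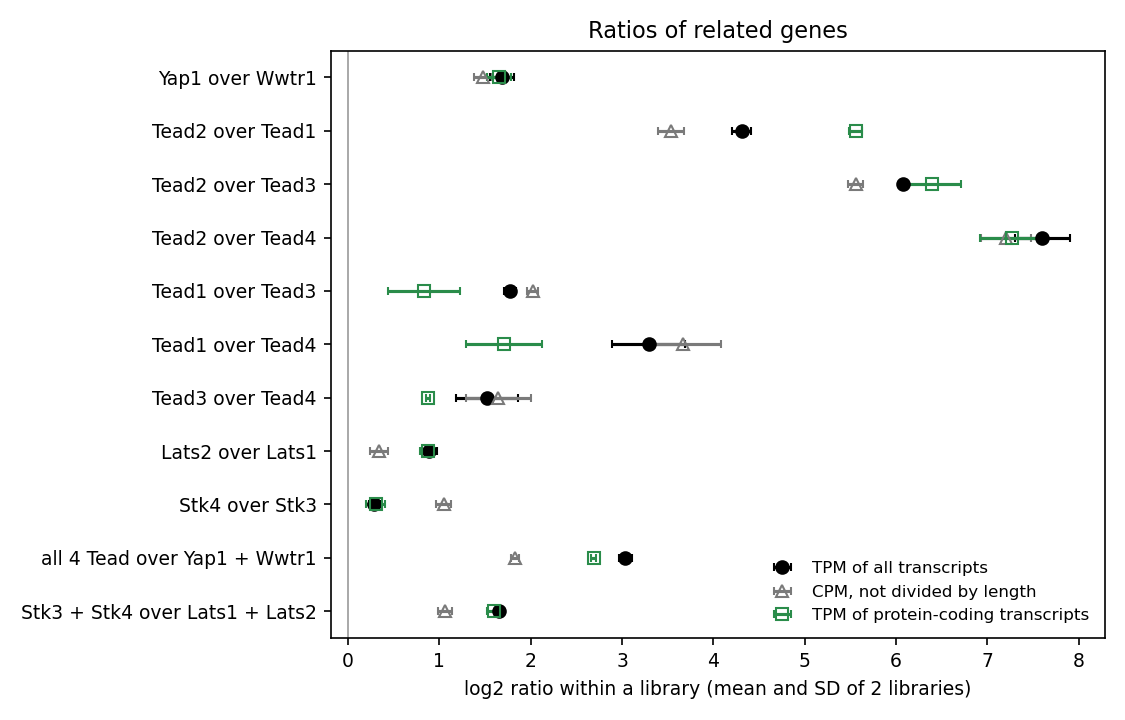
Log2 ratios of related genes within a library (points, mean of 2 libraries; bars, SD), from the TPM of all transcripts (black), from CPM with no division by length (grey) and from the TPM of protein-coding transcripts alone (green). All 11 ratios lie to the right of 0 on each scale, and Tead2 over Tead1 (4.31, 3.54 and 5.56) and Tead1 over Tead4 (3.29, 3.67 and 1.71) differ most between scales.

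From highest to lowest TPM the order was Tead2, Stk4, Yap1, Stk3, Tead1, Lats2, Wwtr1, Lats1, Tead3 and Tead4. All 9 neighbours in that order differed by more than the spread, though 2 of the steps were small. The spread is that between libraries and leaves out errors of length or read assignment that repeat in both. Small steps between different genes are therefore uncertain, and the order was not read as CPM. Stk4 over Yap1 was 0.13 ± 0.04 on the log2 scale (SD, n = 2), or 1.10-fold, and Yap1 over Stk3 was 0.16 ± 0.02, or 1.11-fold. The step from Tead1 to Lats2, 0.29 ± 0.12, was within the spread by the deposited posterior mean TPM (0.21 ± 0.11), a second estimate of the same level. The step from Stk4 to Yap1 was within the spread when protein-coding transcripts alone were summed (0.10 ± 0.09).

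The transcript tables held 71 transcripts of the 10 genes, of which 60 are in GENCODE M21. The transcript with the largest share of a gene's TPM was the same in both libraries for 9 of the 10 genes. It was a protein-coding model in every gene but Tead1. Shares within a gene are model estimates, since transcripts of a gene share reads.

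**Figure D3:**
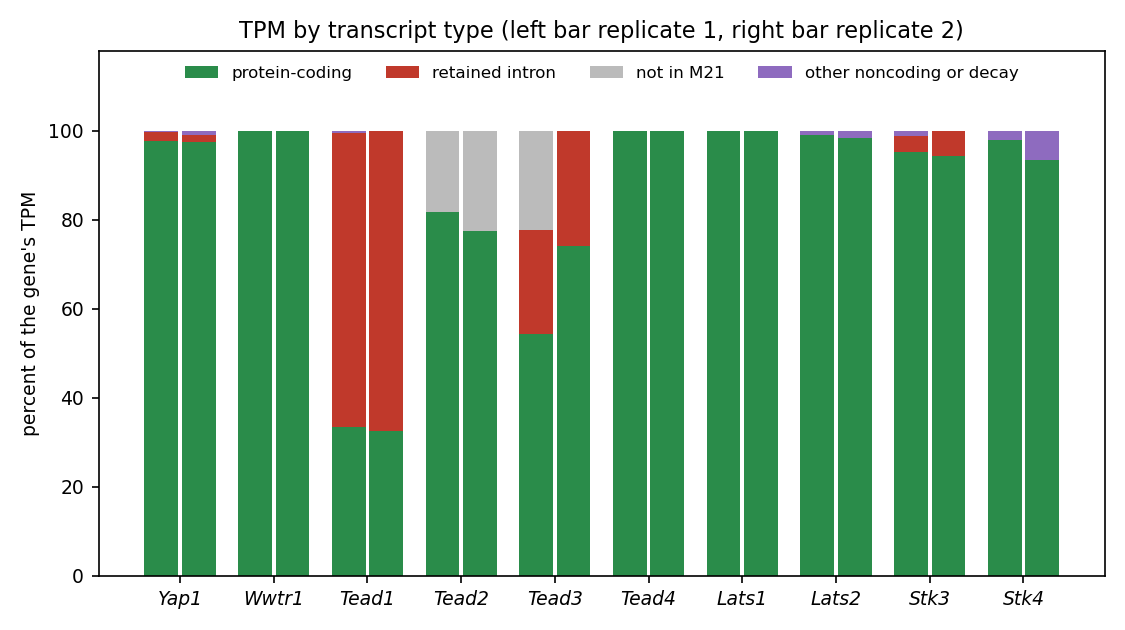
Percent of each gene's TPM in protein-coding transcripts (green), retained introns (red), transcripts absent from GENCODE M21 (grey) and other types (purple), with replicate 1 as the left bar and replicate 2 as the right bar of each pair. Tead1 is the gene with most of its TPM in retained introns, at 66.1% and 67.4%.

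Tead1 was the gene whose level depended most on how transcripts were summed. Its leading transcript by TPM was Tead1-209, a retained-intron model of 646 bases, with 55.66% and 60.43% of the gene's TPM but only 127.55 and 127.0 expected counts. The coding transcript Tead1-202, 9480 bases long, had 28.06% and 25.23% of the TPM on 1102.54 and 909.25 expected counts. Division by length thus gave most of the TPM to a model that held few of the reads: retained introns, Tead1-209 and Tead1-214 (10.43% and 6.94% of the TPM) together, took 12.7% and 13.8% of the Tead1 counts. The short coding model Tead1-213 had 5.4% and 6.99% of the TPM on 10.11 and 12 expected counts. Summed over protein-coding transcripts alone, Tead1 was at 5.07 and 5.03 TPM. By that sum it moved from the fifth place in the order to the eighth, below Lats1, and Tead2 exceeded it 47.1-fold in place of 19.8-fold. As CPM, Tead2 exceeded Tead1 11.6-fold. On the protein-coding sum Tead1 over Tead3 was 1.78-fold, Tead1 over Tead4 3.26-fold and Tead3 over Tead4 1.84-fold, each still larger than the spread. Tead1 over Tead3 was only just so, at 0.83 ± 0.39 on the log2 scale (SD, n = 2). The sum leaves out models not in M21, whose type is not given here, among the Tead genes 9 of Tead2 and 1 of Tead3.

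The second 63-base exon of Tead1 was carried in these estimates by Tead1-209 alone, the retained-intron model, which also holds the other 63-base exon. Tead1-209 took 59.1% and 65.0% of the TPM that spans this position, on 127.55 and 127 expected counts. The 4 other transcripts that hold the second exon, Tead1-201, Tead1-206, Tead1-207 and Tead1-208, are protein-coding models. Their share of the coding TPM that spans this position was 0% in both libraries. A count of 0 allows up to 3 counts, for counting error only. Every read given to a coding transcript that spans the position went to one with the other Tead1 exon printed above.

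A 12-base exon follows the 63-base exon in coding transcripts of Tead1 and of Tead3. Both are shown from the M21 coding transcripts with 30 bases of the neighbouring exons on either side, the 12 bases in capitals.
Tead1 12-base exon, chr7:112856053-112856064, plus strand: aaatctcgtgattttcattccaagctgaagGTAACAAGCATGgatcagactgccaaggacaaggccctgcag
Tead3 12-base exon, chr17:28335485-28335496, minus strand: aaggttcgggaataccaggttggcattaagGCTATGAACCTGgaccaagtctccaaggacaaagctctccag
The exons share 6 of 12 bases. The Tead1 exon was held by 0% of the TPM spanning it in replicate 1 and 1.52% in replicate 2, on 0 and 1.54 expected counts. Every M21 transcript of Tead3 that spans the position holds it, so its share of 100% follows from the annotation and is no measurement. Whether the Tead3 model not in M21 holds it is not known here.

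Tead2 was led by the coding transcript Tead2-201 (67.97% and 63% of its TPM), followed by the coding transcript Tead2-202 (11.64% and 12.24%). Their coding sequences differ in 105 bases at the end of 1 exon, which encode the start of the TEA domain. The stretch is shown in capitals with 30 flanking bases of the Tead2-201 transcript on either side, because it sets the coding transcripts of the most abundant member apart.
Tead2 exon end, chr7:45217346-45217450, plus strand: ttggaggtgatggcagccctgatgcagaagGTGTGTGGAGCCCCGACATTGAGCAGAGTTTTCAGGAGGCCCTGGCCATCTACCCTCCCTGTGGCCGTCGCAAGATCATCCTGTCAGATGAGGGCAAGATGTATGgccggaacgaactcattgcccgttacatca
It is a multiple of 3 bases, 35 codons, so its loss keeps the reading frame. Among M21 transcripts that span it, those with it made up 85.8% of the TPM in replicate 1 and 84.2% in replicate 2. The counts were 11484 of 13195 and 10810 of 12635. The libraries differed by less than 2 percentage points. A further 12.68% and 17.86% of the Tead2 TPM went to a 460-base model, ENSMUST00000143734, which is not in M21 and whose type is therefore not given here. It and 8 other such models held 4.62% and 5.59% of the Tead2 counts.

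Yap1 was led by Yap1-202 (79.33% and 78.22% of its TPM), followed by Yap1-201 (17.37% and 15.1%). The transcripts differ in a cassette exon of 48 bases, 16 codons, which Yap1-201 holds and Yap1-202 skips. It is shown in capitals with the 30 bases of Yap1-201 on either side.
Yap1 cassette exon, chr9:7950492-7950539, minus strand: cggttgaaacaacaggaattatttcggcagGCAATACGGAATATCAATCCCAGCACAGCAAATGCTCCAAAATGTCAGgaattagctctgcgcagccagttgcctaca
Transcripts with the exon held 18.9% of the spanning Yap1 TPM in replicate 1 and 19.8% in replicate 2, on 581.33 of 3156.39 and 518.24 of 2980.08 expected counts. The exon was thus skipped in most Yap1 RNA in both libraries. Wwtr1 had a single main transcript, Wwtr1-201, with 96.14% and 99.21% of its TPM.

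Tead4 was the only member whose leading transcript changed between the libraries. Tead4-201, with a 129-base cassette exon, had 56.29% of the TPM in replicate 1 and 42.1% in replicate 2, and Tead4-203, without it, had 43.71% and 57.9%. The exon (43 codons, in capitals, with 30 flanking bases of Tead4-201) follows the 63-base exon directly.
Tead4 cassette exon, chr6:128247960-128248088, minus strand: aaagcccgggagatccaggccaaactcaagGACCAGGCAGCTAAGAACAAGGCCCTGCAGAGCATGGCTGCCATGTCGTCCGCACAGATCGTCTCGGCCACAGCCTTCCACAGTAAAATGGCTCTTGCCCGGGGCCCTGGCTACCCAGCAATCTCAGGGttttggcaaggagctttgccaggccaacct
The counts behind the shares were low, 54.84 and 57.21 for Tead4-201 and 23.16 and 42.79 for Tead4-203. By counts Tead4-201 was the higher in both libraries, and the order turned only in the shares of TPM, which divide by length. By the posterior mean shares, Tead4-203 averaged 38% in place of 50.8%.

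The Tead3 shares also differed between the libraries. Tead3-201, a coding transcript, had 52.19% of the TPM in replicate 1 and 70.35% in replicate 2. The model ENSMUST00000080572, not in M21, had 22.3% in replicate 1 and was listed at 0 in replicate 2, and the retained intron Tead3-202 had 21.67% and 17.01%. A second retained intron, Tead3-204, was listed at 0 in replicate 1 and had 7.48% in replicate 2, on 2.12 expected counts. By the posterior mean shares, Tead3-201 averaged 41.5% in place of 61.3%.

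The kinases were each led by 1 coding transcript in both libraries. Lats1-202 had 99.69% and 100% of the Lats1 TPM, and Stk3-201 had 95.13% and 94.4% of the Stk3 TPM. The retained intron Stk3-203 had 3.75% and 5.6% of the Stk3 TPM, on 13.66 and 20.07 expected counts. Lats2-201 had 85.4% and 88.41%, and Lats2-207, a coding model that ends before the last coding exon of Lats2-201, had 9.94% and 6.55%. Stk4-201 had 84.54% and 79.04%, and Stk4-202, a model of 3 exons with a coding stretch of 378 bases against 1461 in Stk4-201, had 6.25% and 8.89%. The minor Stk4 models Stk4-204 and Stk4-205 each reached 5% in at least 1 library, on at most 33.71 expected counts.

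Between the 2 libraries, 0 of the 10 genes passed 1.5-fold in either direction. The ratio was that of replicate 2 to replicate 1 after TMM scaling of the libraries (edgeR). Over all 13842 genes whose counts averaged at least 50, the share was 2.93%. A count of 0 of 10 is near that share, and nothing particular to these genes is read from it. Lats2 was 1.14-fold higher in replicate 2 (log2 0.19, 95% exact binomial interval 0.09 to 0.29) and Tead2 1.06-fold (log2 0.09, interval 0.05 to 0.12). Tead4 showed the largest ratio, 1.41-fold (log2 0.49, interval 0.05 to 0.94), on 78 and 100 expected counts. By deposited TPM, 1.18 against 1.83, Tead4 alone passed 1.5-fold. The intervals cover counting error only. Stk3 was 1.08-fold higher in replicate 2 (log2 0.10, interval 0.01 to 0.20). The intervals of these 4 genes excluded 0. Those of the other 6 included it, with ratios from 0.922-fold for Tead1 to 1.04-fold for Lats1. By deposited TPM the sign for Tead1 turned, from log2 -0.12 to 0.02.

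Some cell type markers did move between the libraries. Of the neuron markers, 6 of 6 were detected and 2, Dcx and Stmn2, passed 1.5-fold, both lower in replicate 2, and the summed level of the list was 417.2 TPM in replicate 1 and 325.7 TPM in replicate 2. The erythroid list (6 of 6 detected, 0 past 1.5-fold) summed to 17376 and 12868 TPM. Of the neuroepithelial markers 1, Fabp7, passed 1.5-fold, at 194.17 and 119.79 TPM, and the list summed to 1544 and 1445 TPM. The mesenchyme list summed to 501.9 and 507.5 TPM and the endothelial list to 184.4 and 192.3 TPM. The part of these shifts in the ratios of Lats2, Tead2, Tead4 and Stk3 was not tested.

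**Figure D4:**
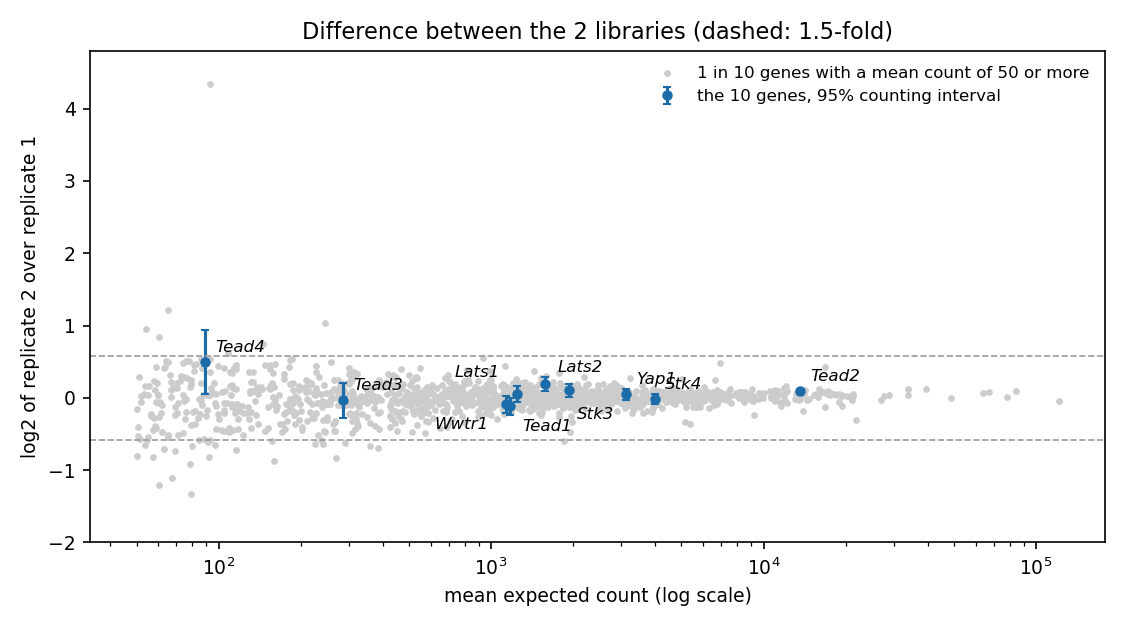
Log2 ratio of replicate 2 to replicate 1 against the mean expected count (log scale) for 1 in 10 of the genes averaging at least 50 counts (grey) and the 10 genes (blue, with 95% exact binomial intervals for counting error). None of the 10 points lies beyond the dashed lines at 1.5-fold, and Tead4, with the fewest counts, is farthest from 0.

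The genes around the core were described from 6 further lists, whose members overlap in part. Of all list genes, core included and each counted once, 119 were found and 108 were detected, against 32.4% of annotated genes. The median over all annotated genes was 0.05 TPM in replicate 1 and 0.04 TPM in replicate 2. The lists were drawn up from known pathway members, so nothing particular to the pathway is read from these counts.

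**Figure D5:**
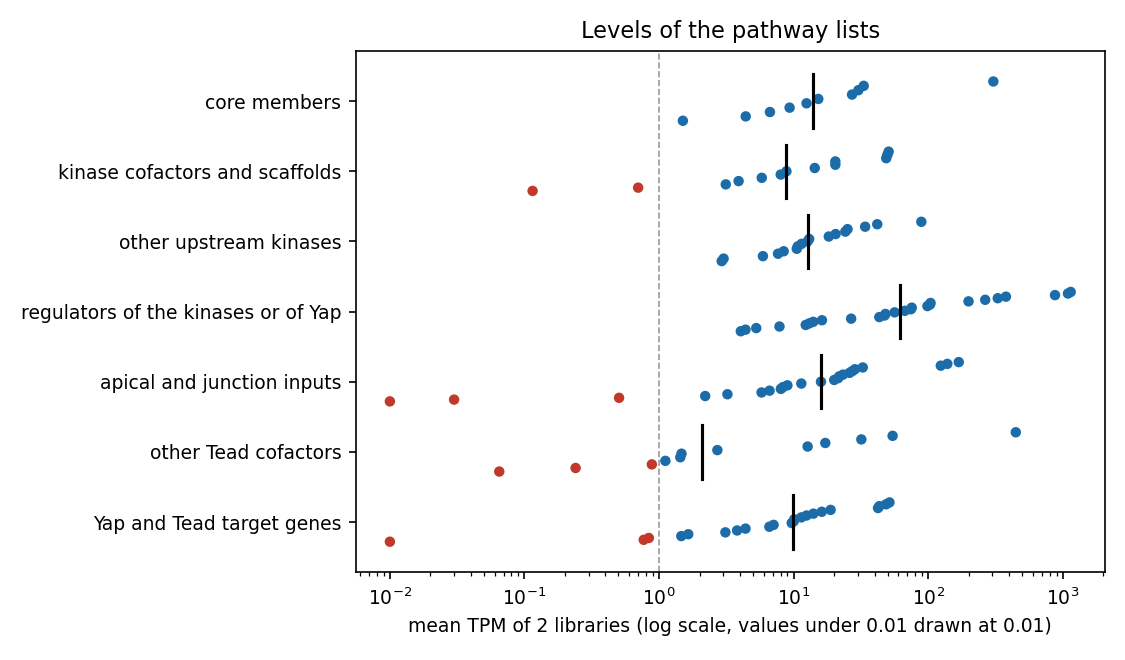
Mean TPM of 2 libraries (log scale) for each gene of the core set and of 6 lists, with blue points at or above 1 TPM in both libraries, red points below that in at least 1, a black bar at the list's median and a dashed line at 1 TPM. The regulators reach highest (median 61.8 TPM) and the other Tead cofactors have the lowest median (2.09 TPM).

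Of the cofactors and scaffolds of the kinases, 11 of 13 were detected, with a median of 8.30 TPM in replicate 1 and 9.40 TPM in replicate 2. The highest were Nf2, the merlin scaffold that brings Lats kinases to the membrane (48.53 and 53.24 TPM), Rassf1, a partner of Stk3 and Stk4 (50.48 and 49.08 TPM), and Mob1a, the coactivator of the Lats kinases (46.82 and 50.82 TPM). All 3 exceeded each of the 4 core kinases in both libraries. Rassf5 and Rassf6 lay under 1 TPM in both. The other kinases listed around the pathway were all detected, 17 of 17, with medians of 12.5 and 12.2 TPM. Highest were Stk38, an NDR kinase related to Lats (86.36 and 91.76 TPM), Taok2, of the TAO kinases that act upstream of the Hippo kinases (41.78 and 41.98 TPM), and Mark2 (32.55 and 35.53 TPM).

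All 26 listed regulators of the kinases or of Yap were detected, with medians of 57.9 and 65.6 TPM. The list was led by 3 of the 14-3-3 genes, whose products bind phosphorylated Yap in the cytoplasm: Ywhae at 1127.53 and 1166.95 TPM, Ywhaq at 1084.55 and 1105.26 TPM, and Ywhaz at 852.96 and 900.52 TPM. These proteins bind many other partners. Of the apical and junctional genes that feed into the pathway, 20 of 23 were detected, with medians of 15.2 and 16.7 TPM. N-cadherin (Cdh2) was highest at 168.7 and 169.17 TPM, followed by alpha-catenin (Ctnna1) at 135.58 and 142.33 TPM and the polarity gene Llgl1 at 121.85 and 126.63 TPM. Dchs2, Fat2 and Crb1 were under 1 TPM in both libraries.

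Of the other cofactors that bind Tead factors or Yap1, 9 of 12 were detected, and the list's medians were 2.78 and 1.49 TPM. Ctnnb1, which has many roles outside this pathway, was at 447.24 and 449.19 TPM. Vgll4, which competes with Yap1 for Tead factors, was at 54.5 and 54.43 TPM, above Yap1 in both libraries, and Rbpms was at 30.52 and 33.25 TPM. The related genes Vgll1 and Vgll2 were low: Vgll1 was under 1 TPM in both libraries (0.05 and 0.08 TPM) and Vgll2 in replicate 1 only (0.53 and 1.24 TPM). Runx2 was also under 1 TPM in both. Runx1 and Trp73, named after their values were seen, were the only list genes outside the markers, among those averaging at least 50 counts, past 1.5-fold between the libraries, at 0.612-fold and 0.521-fold in replicate 2.

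Known target genes of Yap and Tead were mostly detected at moderate levels, 19 of 22, with medians of 9.19 and 9.74 TPM. Lats2, itself a member, is on this list, as are Amotl2, Ptpn14 and Fjx1, which stand on other lists too. The highest were Asap1 (51.99 and 51.26 TPM), Ccn1, the matricellular protein Cyr61 (42.19 and 55.23 TPM), Amotl2, an angiomotin that binds Yap (42.41 and 44.38 TPM), and Nuak2, a kinase (42.21 and 42.63 TPM). Ccn2, or connective tissue growth factor, was lower at 9.42 and 9.96 TPM. The receptor gene Axl was at 16.03 and 16.39 TPM, Gadd45a at 19.31 and 18.38 TPM, and Igfbp3 at 14.04 TPM in both. Also detected were Ccdc80, Tgfb2, Rbms3, F3, Arhgef17, Foxf2, Dock5 and Crim1, with means from 1.47 TPM for Crim1 to 10.1 TPM for Ccdc80. Ankrd1, a common reporter of Yap activity, had 0 and 1 expected counts, and Nt5e and Myof lay just under 1 TPM. None of the 21 with an average of at least 50 counts, Ankrd1 being the exception, passed 1.5-fold between the libraries. A level of a target gene in this tissue is no measure of Yap activity, since other factors act on each of these genes.

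Promoter windows were searched for the hexamer GGAATG, read on both strands (CATTCC on the other), which forms the core of the known Tead binding motif. The windows, from RefSeq on GRCm38.p6, run from 250 bases before to 50 bases after a gene's start, and some genes have more than 1. Of the members, 7 had a window and 4 of these held the hexamer: Yap1, Wwtr1, Lats2 and Tead3. Of the 22 target genes, 15 had a window and 7 held it. Over all 27025 genes with a window the share was 16.6%, and over single windows it was 14.7%. The matches in the members and in 3 target genes named above are shown with 12 bases on either side, 5′ to 3′ on the gene's strand, the hexamer in capitals.
Yap1, chr9:8004720-8004749, minus strand: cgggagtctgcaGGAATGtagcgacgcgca
Wwtr1, chr3:57576029-57576058, minus strand: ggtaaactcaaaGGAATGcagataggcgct
Lats2, chr14:57746102-57746131, minus strand: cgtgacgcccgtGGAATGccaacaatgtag
Tead3, chr17:28350697-28350726, minus strand: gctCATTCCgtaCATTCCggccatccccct
Ccn1, chr3:145650071-145650100, minus strand: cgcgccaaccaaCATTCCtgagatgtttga
Amotl2, chr9:102717727-102717756, plus strand: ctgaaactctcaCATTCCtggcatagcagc
Ankrd1, chr19:36120037-36120066, minus strand: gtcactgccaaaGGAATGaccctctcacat
The Yap1 match begins 141 bases before the start and the Lats2 match 5 bases after it. Tead3 held 4 matches in its windows, of which 2 are in the stretch shown, and Ankrd1 held 2, of which 1 is shown. The members with a match (Yap1, Wwtr1, Lats2 and Tead3) ranged from 4.41 to 30.3 TPM, and the most abundant member, Tead2, had a window without the hexamer. Ankrd1, with 2 matches, was the lowest target gene. A match is a description of letters and shows no binding.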

How the data were processed

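Total RNA of pooled E10.5 forebrain was sequenced in 2 libraries, numbered as biological replicates in the labels. Both biosamples are listed under the same strain donor entry, so spread between them is that of pools. Assembly mm10 and annotation M4 are named in the notes deposited with the samples. For aligner, quantifier, priming and use of strand, the sources used here give nothing. Expected counts, per the file headers, are read numbers estimated for each gene and transcript, without normalization. The authors deposited TPM, a length-adjusted share over all 69691 rows, spike-ins included, with a posterior mean TPM. Each transcript's percent of its gene's TPM was also deposited. The bounds of a credibility interval of TPM, a score here since its level is not given, and other columns such as lengths were deposited but are not printed.

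From these, 43346 rows with Ensembl identifiers were kept, and the rest entered no comparison. Symbols, positions and exon sequences came from GENCODE M21, and 54 of the 71 transcripts had the same length there. Detected means at least 1 TPM in both libraries. Log2 ratios within a library used TPM + 0.1. The spread of genes of like count was the scaled median absolute deviation of their log2 ratios between libraries. Library ratios used expected counts over TMM-scaled library sizes from genes with at least 10 counts in each library (edgeR 4.0.16 in R 4.3.3), with exact binomial intervals, which cover counting error only since reads are not independent molecules. The code for ratios between libraries was tested on simulated data, and that for ratios within a library was not. Alternatives were DESeq2 1.42.0 size factors, other thresholds and pseudocounts, CPM, posterior means, leaving out each library and, chosen after seeing the data, protein-coding transcripts alone and posterior means for the order of levels and the leading transcripts. Python 3.11.15, numpy 2.4.6, pandas 2.3.3, scipy 1.17.1 and matplotlib 3.10.9 were used.

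The members and lists were chosen with earlier results of these data known. Named were all members, the 3 highest genes of each list and up to 3 under 1 TPM in both libraries, all target genes, and transcripts with at least 5% of a member's TPM in either library. Protein sequences were not used here.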

Additional observations from a re-analysis of the deposited data

How the results depend on the processing

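All 11 ratios of related genes kept their sign and stayed larger than the spread under each alternative that gives a spread. The same sign in each library alone is part of that rule and is no further check. The number of neighbouring pairs larger than the spread was 9, and 8 by posterior mean TPM and by protein-coding transcripts alone. At least 5 TPM in place of 1 TPM left 5 of the 12 other Tead cofactors detected in place of 9, and 8 of the 10 members. By deposited TPM 1 member, Tead4, passed 1.5-fold between the libraries, against 0 by the other scalings and at 2-fold. Leaving out 1 of 2 libraries cannot move a transcript share by more than 1 SD, so it was no test of the shares. By posterior means the share of the leading transcript moved by more than 1 SD of the libraries in 6 of the 10 members. Yap1-202 was then 75.7%, Tead3-201 41.5%, Tead4-203 38%, Lats1-202 99.5%, Lats2-201 78.3% and Stk3-201 91.4%. The cause was not tested. No paired analysis was possible because the 2 libraries form 1 group. Depth limits Tead4 and Tead3 most, with 78 and 302 expected counts in replicate 1.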
